A study of Mus musculus with 9 samples.

Results

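Lyz1 and Lyz2 are the 2 mouse genes for c-type lysozyme, and both were followed here among 25494 genes measured in TTP-deficient macrophages. They were chosen by gene name, with earlier results of the same libraries known, so their levels and differences are descriptions and carry no test. The cells were bone marrow-derived macrophages lacking endogenous tristetraprolin (TTP, gene Zfp36), immortalized with the oncogenes hcmyc and hRasG12V and positive for CD11b and F4/80. All groups shared that TTP deficiency and those oncogenes, and each carried a retroviral, doxycycline-inducible transgene in a pool of sorted GFP-positive cells. The transgene coded for GFP alone (GFP), for GFP fused to wild-type TTP (GFP-TTP), or for GFP fused to a TTP in which 2 serines phosphorylated by the kinase MK2 were replaced by alanine (GFP-TTP-AA). Every culture received doxycycline at 1 µg/ml for 6 h and lipopolysaccharide (LPS) at 1 µg/ml for 1 h, there was no culture without LPS, and each group had 3 libraries of rRNA-depleted total RNA. The sources used here do not say whether the 3 libraries of a group came from separate cultures. The paper refers to these cells as 3 cell lines. An effect of the transgene and a difference between the lines therefore cannot be told apart.

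Lysozyme cuts the glycan strands of peptidoglycan, the polymer of the bacterial cell wall, and is both secreted and delivered to phagosomes. In the mouse the gene is duplicated. Lyz2, also called lysozyme M, is a classical marker of macrophages and neutrophils, and its locus drives Cre in the widely used LysM-Cre mice, whereas Lyz1, also called lysozyme P, is known for its high expression in the Paneth cells of the small intestine. TTP binds AU-rich elements in 3′UTRs and recruits the deadenylation machinery, and phosphorylation by MK2 restrains that activity.

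Since both genes are near copies of each other, the first question was how well reads of 50 bases can be told apart. In GRCm38 (GENCODE release 21) Lyz1 (ENSMUSG00000069515) lies on chromosome 10 from 117287797 to 117292868 and Lyz2 (ENSMUSG00000069516) from 117277331 to 117282321, both on the minus strand and 5475 bases apart. Each has 1 annotated transcript with 4 exons and no overlapping gene. The transcripts are 1263 bases for Lyz1 and 1316 bases for Lyz2, with a coding sequence of 447 bases in both. Over the aligned coding sequence 425 of 447 positions were identical (95.1%), and over the 3′UTR 756 of 791 positions (95.6%). The translated proteins of 148 residues were identical at 136 positions (91.9%). Upstream of the RefSeq transcription starts the genes were less alike, with 200 of 252 aligned positions identical (79.4%) over the 250 bases before each start.

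Exon 2 shows how few bases separate both genes within coding sequence. It spans chr10:117291029-117291193 in Lyz1 and chr10:117280641-117280805 in Lyz2, on the minus strand of GRCm38, and its 165 bases differ at 6 positions. The sequences are given in the sense of transcription, with the differing bases in capitals.
Lyz1 exon 2: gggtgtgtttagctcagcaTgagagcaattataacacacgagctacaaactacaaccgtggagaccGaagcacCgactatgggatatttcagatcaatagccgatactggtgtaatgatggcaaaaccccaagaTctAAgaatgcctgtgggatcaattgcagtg
Lyz2 exon 2: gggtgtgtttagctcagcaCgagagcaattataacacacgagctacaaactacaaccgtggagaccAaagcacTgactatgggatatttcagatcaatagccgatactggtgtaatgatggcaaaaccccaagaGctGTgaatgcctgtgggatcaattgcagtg

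A read can be assigned to 1 of both genes only where it covers such a base. The longest stretch identical in both transcripts was 118 bases of coding sequence, from base 306 to 423 of Lyz1 and from base 355 to 472 of Lyz2, and any read that falls inside it fits both genes equally well.
Shared stretch: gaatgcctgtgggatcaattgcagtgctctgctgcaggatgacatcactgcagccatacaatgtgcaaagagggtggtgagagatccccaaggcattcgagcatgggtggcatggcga
At the other extreme, 7 coding windows of 50 bases of Lyz1 differed from Lyz2 at 8 positions, the most of any coding window. The first of them, at bases 77 to 126 of the coding sequence, is shown with these positions in capitals.
Lyz1 window: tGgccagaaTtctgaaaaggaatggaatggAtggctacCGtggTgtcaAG
Lyz2 window: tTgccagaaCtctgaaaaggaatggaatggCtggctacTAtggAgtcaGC

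Over the whole transcript, 195 of 1214 windows of 50 bases in Lyz1 (16.1%) occurred without a mismatch in Lyz2, and the same 195 windows were 15.4% of the 1267 windows of Lyz2. Within 2 mismatches, 765 windows matched, which was 63.0% of Lyz1 and 60.4% of Lyz2. No transcript of another gene held an exact copy of any window of either gene. The exact matches lay in the coding part (80 windows), across the stop codon (22 windows) and in the 3′UTR (93 windows). The first began at base 241 of the Lyz1 and base 290 of the Lyz2 transcript, base 211 of the coding sequence in both, so that windows starting in the 5′UTR or in the coding sequence before that base had none. The authors kept up to 2 placements per read, and how the counting step treated reads with 2 placements is not given in the sources used here.

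**Figure D1:**
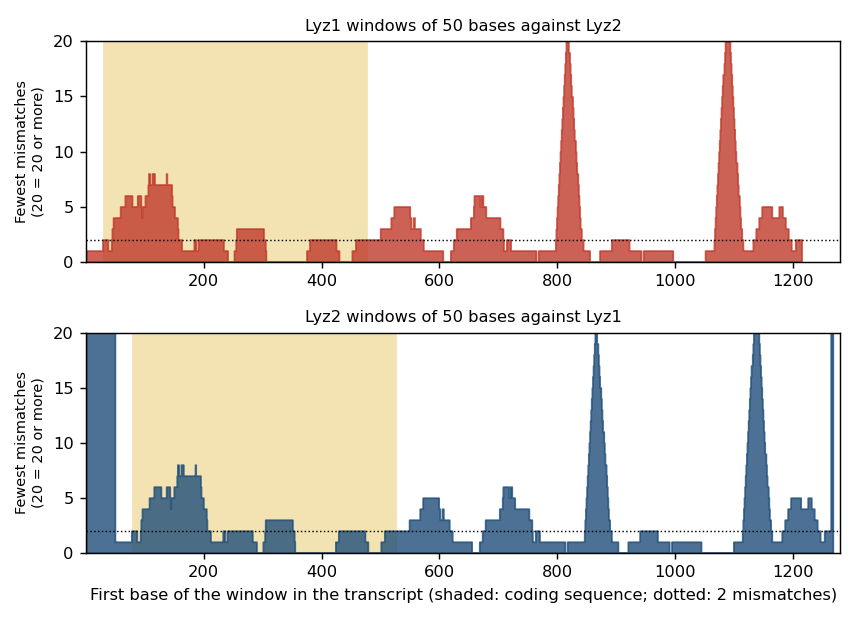
Fewest mismatches (vertical axis) between each window of 50 bases of one lysozyme transcript and any window of the other, by the first base of the window (horizontal axis), with Lyz1 above and Lyz2 below; shading marks coding sequence and the dotted line 2 mismatches. Stretches at 0 are the 195 windows that a read cannot tell apart, and the peaks mark short insertions or deletions and an end found in only one of both genes.

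AU-rich motifs were looked for in both 3′UTRs, as TTP is known to bind them. The pentamer ATTTA, searched on the transcribed strand alone, had 0 matches in the 786 bases of the Lyz1 3′UTR and 0 in the 790 bases of the Lyz2 3′UTR. Among 1400 3′UTRs of a length within 20% of that of Lyz1, 65.9% held it. The longer motif TATTTAT, which contains the pentamer, was likewise found 0 times in both, against 20.6% of those 1400 3′UTRs. The A and T content was 54.1% for Lyz1 and 53.3% for Lyz2. These searches say only that the letters are not in the annotated 3′UTRs.

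The values per library need a word before the levels are given. The deposited table of normalized counts holds 1 number per gene and library, but these numbers are means fitted by the authors' model and not measured counts. None of its values was 0, and its centred log2 values had 4 independent components where 9 free libraries would give 8. A fitted value is the product of a library factor, a term for the replicate number and a term for the group, so it carries no scatter between replicates and no test between groups could be run. The spread between replicates given below is that of the fitted replicate-number term, which is the same in every group. It cancels between same-numbered libraries and does not measure the precision of a difference between groups. Values were divided by a scaling factor per library, and a difference is the difference of group means of log2(scaled value + 0.5). Sums of fitted values, which stand in for depth, ran from 21482954 for GFP-TTP replicate 1 to 102613526 for GFP-TTP-AA replicate 3. Comparisons of 13027 genes with a mean scaled value of at least 10 serve as the background.

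Zfp36 was examined as the gene that is disrupted in the cells and that 2 of the transgenes encode. Its level was 1744, 1423 and 890.2 in GFP replicates 1 to 3, 1787, 1447 and 913.1 in GFP-TTP and 2828, 2298 and 1443 in GFP-TTP-AA (scaled values). It was thus not at 0 in GFP libraries, and it differed by only 0.03 (log2) between GFP-TTP and GFP, so it did not tell the libraries labelled GFP-TTP from those labelled GFP. GFP-TTP-AA was higher than GFP by 0.69 and higher than GFP-TTP by 0.66. The Zfp36 level thus does not bear out the label of GFP-TTP against GFP. It is a limited check, as RNA of the transgene and of the disrupted gene were not separated. The paper reports GFP-TTP protein in its transduced cells by western blot after doxycycline. Group names below are those of the labels, and every direction drawn for GFP-TTP or GFP rests on them.

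Macrophage identity was checked on a list of markers. All 15 of 15 measured macrophage markers had a mean of at least 10, led by Lgals3 (mean scaled value 50665), Cd14 (26067), Tyrobp (23261) and Csf1r (21229), the receptor for M-CSF. The lowest of the 15 was Mertk (18.5), named after its value was seen. The summed level of the 15 ran from 183630 to 216506 in GFP, from 166965 to 199726 in GFP-TTP and from 209062 to 242633 in GFP-TTP-AA. Lyz2 is also a neutrophil gene, and of 9 neutrophil markers 7 were in the table and 4 had a mean of at least 10, the highest being Cxcr2 (372) and S100a8 (174). Their summed level was 522 to 605 in GFP, 566 to 651 in GFP-TTP and 507 to 587 in GFP-TTP-AA. The remaining members above 10 were the granule genes Camp (13.9) and Prtn3 (10.4). The measured members below 10 were the granule genes Mpo, Elane and Ltf, named after their values were seen. Their means were 0.493, 0.489 and 0.916, that is, near 0. Of 7 dendritic cell markers, 4 had a mean of at least 10, with summed levels of 298 to 357 in GFP, 294 to 350 in GFP-TTP and 242 to 294 in GFP-TTP-AA. These were Flt3 (mean 235), Zbtb46 (32.05), Itgax (16.2) and Xcr1 (16.1). Zbtb46, a transcription factor of classical dendritic cells, was lower in GFP-TTP-AA by 1.08 than in GFP and by 1.03 than in GFP-TTP (log2), with geometric means of 38.8, 37.5 and 18.1 in GFP, GFP-TTP and GFP-TTP-AA. The part of such cells in the Lyz1 differences was not tested. None of the T and B cell markers and none of the fibroblast and epithelial markers reached a mean of 10, with highest summed levels of 8.06 and 2.13. In bulk RNA, fewer cells with a transcript and less of it per cell cannot be told apart.

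Lyz2 was the most abundant protein-coding RNA per length in all 9 libraries. Its scaled value was 572418, 715837 and 504013 in GFP replicates 1 to 3. In GFP-TTP it was 467758, 580754 and 412449. In GFP-TTP-AA it was 647308, 806328 and 569718. The ranges of the 3 groups overlapped, as each group difference lay within the 0.50 (log2) range of the fitted replicate term. Replicate 2 had the highest value in each group, as that term is shared. Per kilobase of exon the geometric mean was 449159 in GFP, 366330 in GFP-TTP and 507191 in GFP-TTP-AA, which ranked 1st of 11523 protein-coding genes in every library. Lyz2 took from 1.14% (GFP-TTP replicate 3) to 2.14% (GFP-TTP-AA replicate 2) of the sum of all fitted values of a library.

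Lyz1 was far less abundant and differed more between groups. Its scaled value was 18449, 26915 and 23116 in GFP replicates 1 to 3. In GFP-TTP it was 7813, 11316 and 9803. In GFP-TTP-AA it was 4760, 6917 and 5961. No library of one group reached into the range of another, since each group difference exceeded the 0.54 (log2) range of the fitted replicate term. The order GFP, GFP-TTP, GFP-TTP-AA held for each replicate number, as the fitted form of the values requires. Neither is evidence from replicates, and the share of all genes without such overlap was not counted. Per kilobase the geometric mean was 17860 in GFP, 7549 in GFP-TTP and 4601 in GFP-TTP-AA. Lyz1 thus ranked from 55 to 72 among the 11523 protein-coding genes in GFP libraries, from 195 to 244 in GFP-TTP and from 336 to 443 in GFP-TTP-AA.

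The authors' mean over all libraries, as listed in their 3 comparison tables, was 13056 for Lyz1 and 583533 for Lyz2. Both genes appeared once in each of these tables. The means of the scaled values computed here were 12783 and 586287.

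**Figure D2:**
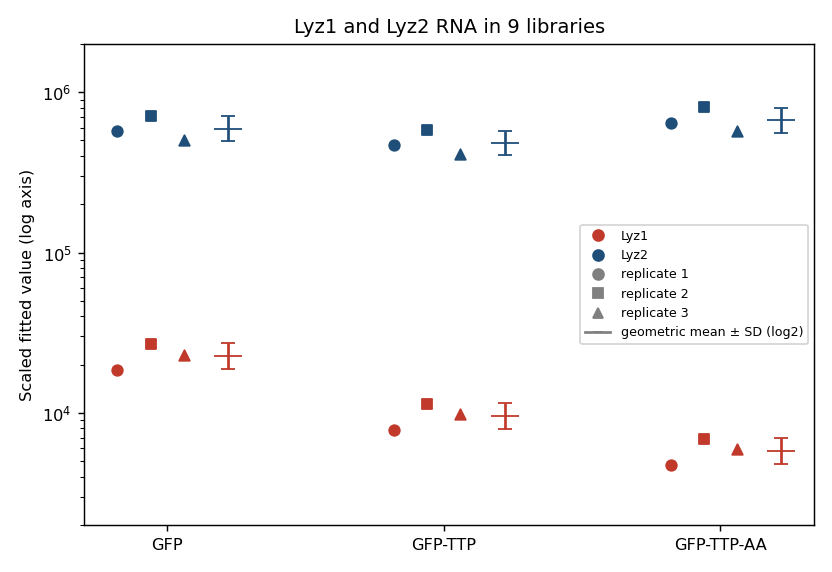
Scaled fitted values (log axis) of Lyz1 and Lyz2 in the 3 libraries of each group, with symbols for replicate numbers and bars for the geometric mean ± SD on the log2 scale, which is the spread of the fitted replicate term. Lyz1 steps down from GFP (18449 to 26915) to GFP-TTP (7813 to 11316) and GFP-TTP-AA (4760 to 6917), while the ranges of Lyz2 overlap. Whether ranges overlap depends on the fitted replicate term and not on measured scatter.

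Between the libraries labelled GFP-TTP and those labelled GFP, Lyz1 was lower by 57.7% and Lyz2 was lower by 18.4%. On the log2 scale Lyz1 averaged 13.22 ± 0.27 (SD, n = 3) in GFP-TTP and 14.46 ± 0.27 (SD, n = 3) in GFP, a difference of -1.24. For Lyz2 these means were 18.88 ± 0.25 (SD, n = 3) and 19.17 ± 0.26 (SD, n = 3), a difference of -0.29. Of all genes compared, 1.03% were lower by at least 2-fold and 0.284% higher by at least 2-fold, and Lyz1 was among the former. There were 74 of 13027 genes with a difference at or below that of Lyz1 and 1246 at or below that of Lyz2.

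Between the libraries labelled GFP-TTP-AA and those labelled GFP, Lyz1 and Lyz2 differed in opposite directions. Lyz1 averaged 12.50 ± 0.27 (SD, n = 3) in GFP-TTP-AA, a difference of -1.96 from GFP, or 3.88-fold lower. Lyz2 averaged 19.35 ± 0.25 (SD, n = 3), a difference of 0.18. In this comparison 0.315% of genes were lower and 1.1% higher by at least 2-fold. Of 13027 genes 2 had a difference at or below -1.96, Lyz1 and Cd200r2 (-2.35, named after its value was seen), whereas 2906 had one at or above that of Lyz2.

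Between the libraries labelled GFP-TTP-AA and GFP-TTP, Lyz1 was lower by 39.0% and Lyz2 higher by 38.5%. By their labels these groups differ in the 2 serines, and they also differed by 0.66 (log2) in Zfp36 RNA. The differences were -0.71 for Lyz1 and 0.47 for Lyz2. Neither gene passed 2-fold, as 0.591% of genes did towards lower and 2.58% towards higher levels. There were 213 of 13027 genes at or below the difference of Lyz1 and 1250 at or above that of Lyz2. The 3 comparisons share libraries in pairs, and each difference is fixed by the other two.

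Counting error sets a lower limit to the error of these differences. From the summed fitted values, which were 64577, 26392 and 26077 for Lyz1 in GFP, GFP-TTP and GFP-TTP-AA, Poisson counting alone gave a standard error of 0.011, 0.011 and 0.013 for the Lyz1 differences of GFP-TTP minus GFP, GFP-TTP-AA minus GFP and GFP-TTP-AA minus GFP-TTP (log2). For Lyz2 it was at most 0.0017. Depth is thus not what limits the precision of either gene, and the scatter between cultures is not contained in these values.

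**Figure D3:**
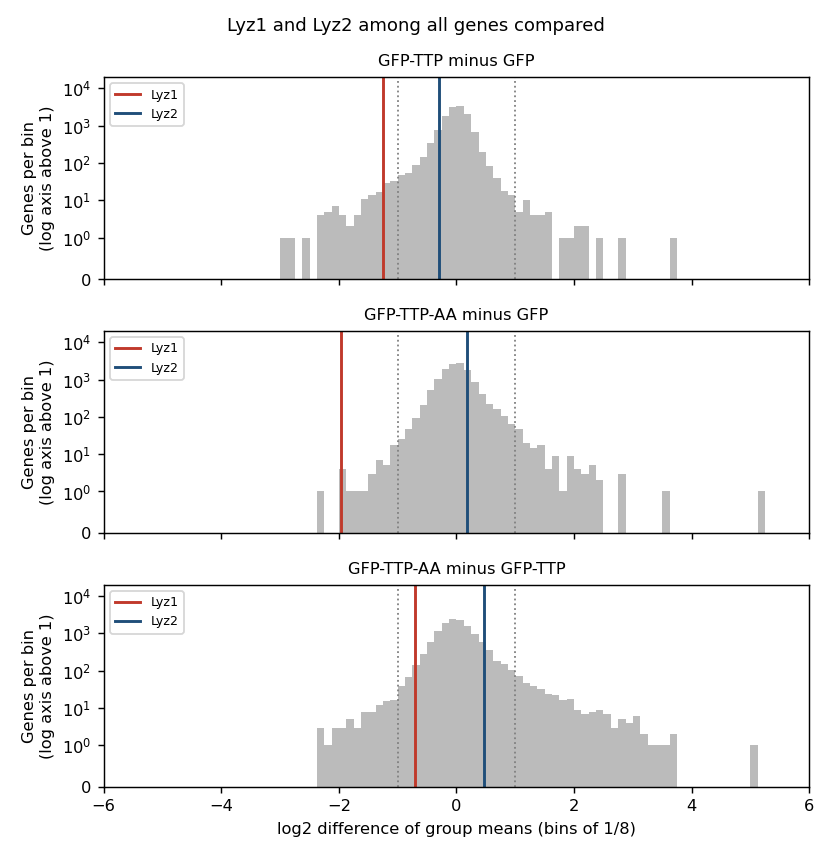
Numbers of genes (vertical axis, logarithmic above 1) by their log2 difference of group means (horizontal axis, in narrow bins of equal width) in the 3 comparisons of 13027 genes, with lines for Lyz1 and Lyz2 and dotted lines at 2-fold. Lyz1 lies in the lower tail at -1.24 and -1.96 against GFP, and Lyz2 stays inside 2-fold in each panel.

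The ratio of both genes within a library does not depend on any scaling between libraries. Per kilobase, Lyz2 exceeded Lyz1 29.8-fold, 25.5-fold and 20.9-fold in GFP replicates 1 to 3. In GFP-TTP the ratio was 57.5, 49.3 and 40.4. In GFP-TTP-AA it was 131, 112 and 91.7. The geometric means per kilobase were 25.1 in GFP, 48.5 in GFP-TTP and 110 in GFP-TTP-AA, with an SD of 0.26 (log2, n = 3) in each group. That SD is the fitted replicate term, so the absence of overlap between groups is not evidence from replicates. On the log2 scale the ratio was higher by 0.95 in GFP-TTP than in GFP, by 2.13 in GFP-TTP-AA than in GFP and by 1.18 in GFP-TTP-AA than in GFP-TTP. Counted over the 1019 windows of Lyz1 and 1072 windows of Lyz2 that have no exact copy in the other transcript, instead of per kilobase, the ratio was 24.9, 48.1 and 109.

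**Figure D4:**
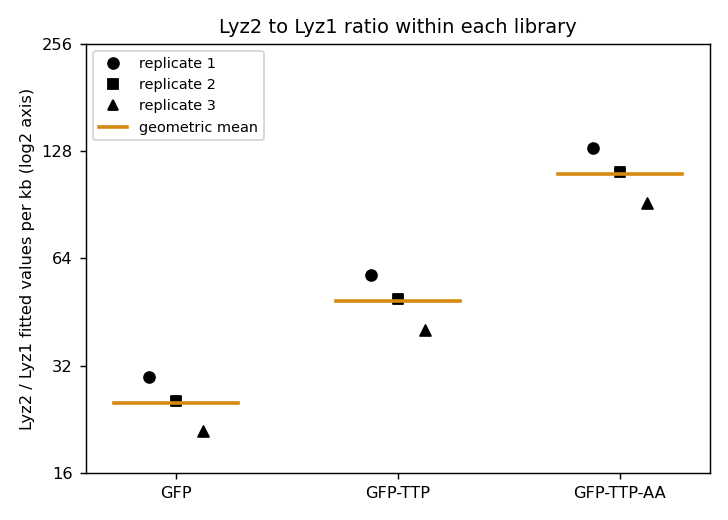
Ratio of the Lyz2 to the Lyz1 fitted value per kilobase of exon (log2 axis) in each of the 3 libraries per group, with lines at the geometric means of 25.1, 48.5 and 110. The ratio steps up from group to group, and the spread within a group is that of the fitted replicate term.

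Reads of one gene placed on the other would act differently on both. The fitted value of Lyz1 was 3.22%, 3.76% and 4.59% of that of Lyz2 in GFP replicates 1 to 3, 1.67%, 1.95% and 2.38% in GFP-TTP and 0.735%, 0.858% and 1.05% in GFP-TTP-AA. All 9 shares were below the 15.4% of Lyz2 windows that also occur in Lyz1, the share that would come from counting such reads for both genes at even coverage. If a fixed share of Lyz2 reads was counted for Lyz1, it could not exceed 0.735%, the share in GFP-TTP-AA replicate 1. Taking 0.1% of the Lyz2 value off Lyz1 in every library, an alternative chosen after seeing the data, left Lyz1 differences of -1.28 for GFP-TTP and -2.10 for GFP-TTP-AA against GFP. With 0.5% taken off they were -1.46 and -3.03, and the difference of GFP-TTP-AA minus GFP-TTP was -1.57. The size of the Lyz1 differences thus depends on this share. Under 1 fixed share their direction could not change, because the Lyz2 to Lyz1 ratio was lowest in GFP and highest in GFP-TTP-AA. That outcome is set by the arithmetic of these same values and is no test of misplaced reads. Taking off a fixed share can then only widen the differences. A share that differs between libraries is not covered by this and was not tried. The sum of both genes, which reads moved from one to the other do not alter, differed by -0.32, 0.13 and 0.45 (log2) in the 3 comparisons, beside -0.29, 0.18 and 0.47 for Lyz2 alone. Reads left out of both genes would alter this sum. The actual share of misplaced reads was not tested.

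Other lysozyme-like genes were scarce. Of 10 genes of the family list 4 were in the table, and 3 of them had a mean of at least 10. Beside Lyz1 and Lyz2 this was Lyzl4, a lysozyme-like gene, with a mean scaled value of 50.6 and differences of 0.16 (GFP-TTP minus GFP), 0.02 (GFP-TTP-AA minus GFP) and -0.13 (GFP-TTP-AA minus GFP-TTP). The one below it was Lalba, the related alpha-lactalbumin gene of the mammary gland, which had a mean of 0.165.

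The neighbours of the locus were described as well. The 5 nearest measured genes at lower coordinates were Yeats4, Frs2, Cct2, Rab3ip and Cnot2, and those at higher coordinates Cpsf6, Mdm2, Slc35e3, Nup107 and Rap1b. None of these 10 passed 2-fold in any comparison, as few genes did overall (at most 2.58% in either direction). Their differences ranged from -0.53 (Frs2, an adaptor of growth factor receptors) to 0.01 (Slc35e3, a solute carrier) for GFP-TTP minus GFP, with a median of -0.19, beside -0.13 for 614 genes of chromosome 10. For GFP-TTP-AA minus GFP they ranged from -0.42 to 0.18 with a median of -0.03, beside 0.02 for those 614 genes. For GFP-TTP-AA minus GFP-TTP they ranged from -0.33 to 0.49 with a median of 0.21, beside 0.16 for the 614. Over all genes compared, each median was within 0.01 of 0. The nearest of the 10 neighbours, Yeats4 and Cpsf6, lie 52.8 and 51.8 kb away. Cpsf6, a factor of mRNA 3′ end processing, differed by -0.30, -0.27 and 0.03 in the 3 comparisons. Yeats4, a chromatin reader, differed by -0.22, 0.18 and 0.40. Mdm2, which the paper lists among its top 3′UTR targets of TTP, differed by -0.20, 0.17 and 0.37.

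Transcription factors known to act at the Lyz2 promoter were not uniformly higher or lower. Of 7 such factors 6 had a mean of at least 10. None of them passed 2-fold in any comparison, as few of all genes did (at most 2.58% in either direction). Their median difference was -0.10 for GFP-TTP minus GFP, 0.05 for GFP-TTP-AA minus GFP and 0.28 for GFP-TTP-AA minus GFP-TTP, against medians within 0.01 of 0 over all genes. Spi1, which codes for the myeloid master regulator PU.1, differed by -0.11, 0.29 and 0.41 in these comparisons. Cebpb, an LPS-responsive C/EBP factor and the most abundant of the list (mean scaled value 28414), differed by -0.05, 0.01 and 0.05. Runx1 differed by -0.39, -0.01 and 0.38, and Gabpa, an ETS factor, by -0.09, 0.09 and 0.18. The widest differences were in 2 low genes named after their values were seen: Cebpa, with geometric means of 134, 265 and 134 in GFP, GFP-TTP and GFP-TTP-AA, and Cebpe, with 94.8, 68.4 and 133. Myb, a factor of progenitor cells that was the only one below a mean of 10, was near 0 with a mean of 0.438.

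Of the 15 macrophage markers, 1 was lower by at least 2-fold in GFP-TTP than in GFP (1.03% of all genes), 0 in GFP-TTP-AA than in GFP (0.315% of all genes) and 2 were higher in GFP-TTP-AA than in GFP-TTP (2.58% of all genes). The list median was -0.07, 0.20 and 0.27 in the comparisons GFP-TTP minus GFP, GFP-TTP-AA minus GFP and GFP-TTP-AA minus GFP-TTP. Emr1, the gene for F4/80, differed by -0.76, 0.68 and 1.44. Ctss, the protease cathepsin S, differed by -0.73, 0.31 and 1.04. Fcgr1, a high-affinity IgG receptor, differed by -1.21, -0.39 and 0.82. These 3 are named because they passed 2-fold in a comparison. Each was lower in GFP-TTP than in GFP, as were 11 of the 15 markers and both Lyz1 and Lyz2. Each was higher in GFP-TTP-AA than in GFP-TTP, as were 14 of the 15, the direction of Lyz2 and not of Lyz1. Of all genes, 49.7% were above 0 in each of these 2 comparisons. In GFP-TTP-AA minus GFP, Fcgr1 was lower, as was Lyz1, while Emr1 and Ctss were higher, as was Lyz2. Csf1r stayed within 0.27 of 0 in each comparison, and Lgals3, the gene for galectin-3, within 0.04.

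Lysozyme acts in phagosomes that fuse with lysosomes, so lysosomal genes were listed as well. Of 12 genes for lysosomal membrane proteins and acidification, all 12 were measured. None of the 12 passed 2-fold, beside at most 2.58% of all genes in either direction. Their medians were -0.14, -0.13 and 0.07 in the 3 comparisons in the same order. Lamp1, the major membrane glycoprotein, differed by -0.15, 0.24 and 0.38, and Lamp2 by -0.14, 0.27 and 0.40. The proton pump subunits Atp6v1a (-0.23, -0.30 and -0.07) and Atp6v1b2 (-0.08, -0.26 and -0.18) were lower in both TTP groups than in GFP. The other listed subunits, named after their values were seen, were Atp6v0c (-0.11, -0.21 and -0.10) and Atp6v0d1 (-0.13, 0.14 and 0.27). Of these, Atp6v0d1 was higher in GFP-TTP-AA than in GFP.

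Of 16 lysosomal hydrolases and their inhibitors, 0 were lower by 2-fold in any comparison (at most 1.03% of all genes). The number higher by at least 2-fold was 1 for GFP-TTP-AA minus GFP (1.1% of all genes) and 2 for GFP-TTP-AA minus GFP-TTP (2.58% of all genes), and these were Ctsh in both and Ctss in the latter. Medians were -0.13, 0.08 and 0.20. Ctsh, the aminopeptidase cathepsin H, was low, with geometric means of 25.6 in GFP, 20.01 in GFP-TTP and 99.9 in GFP-TTP-AA. The most abundant were Ctsd (mean scaled value 111436), Ctsb (95877), Ctsz (67958) and Psap (60991), the precursor of the saposins, and their differences lay between -0.19 and 0.50.

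Genes for sensing peptidoglycan, the substrate of lysozyme, were few. Of 10 such genes 6 had a mean of at least 10. None of the 6 passed 2-fold, as at most 2.58% of all genes did in either direction. All 6 were above 0 in both comparisons of GFP-TTP-AA, as were 50.2% of all genes against GFP and 49.7% against GFP-TTP. Their medians were -0.08, 0.29 and 0.33. Tlr2, a receptor for bacterial lipoproteins with a mean scaled value of 29979, differed by -0.13, 0.19 and 0.32. Nlrp3, the inflammasome sensor, differed by -0.07, 0.10 and 0.17, and Ripk2, the kinase downstream of the NOD receptors, by -0.08, 0.29 and 0.38. Cd14, which also stood in the macrophage list, differed by 0.11, 0.29 and 0.18.

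Other antimicrobial proteins were expressed at a low level beside lysozyme. Of 15 granule and secreted proteins 11 were in the table and 6 had a mean of at least 10, with a summed level between 1305 and 1895 over all libraries. None passed 2-fold, beside at most 2.58% of all genes in either direction, and the medians were 0.00, 0.22 and 0.33. Hp, the gene for haptoglobin (mean scaled value 546), differed by 0.13, -0.18 and -0.31. Lcn2, which binds bacterial siderophores (424), differed by -0.01, 0.44 and 0.44, and Slpi, a secreted protease inhibitor (322), by -0.14, 0.26 and 0.40. S100a8, a subunit of calprotectin (174), differed by 0.01, 0.76 and 0.75.

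**Figure D5:**
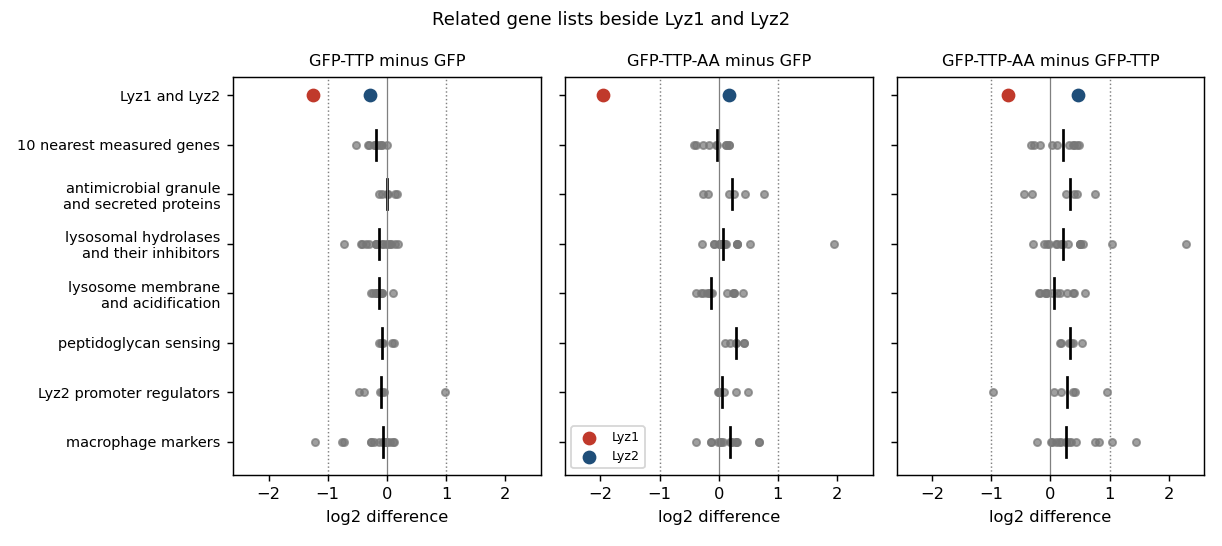
Log2 differences of group means (horizontal axis) in the 3 comparisons for Lyz1 and Lyz2, the 10 nearest measured genes and the measured members of 6 gene lists; grey points are genes, black ticks medians and dotted lines 2-fold. Lyz1 lies below every listed gene in GFP-TTP-AA minus GFP (-1.96), whereas Lyz2 (0.18) lies within the range of the macrophage and lysosomal lists.

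As a check on level, 10 reference genes of general cell function had median differences of 0.02, -0.11 and -0.12 in the comparisons GFP-TTP minus GFP, GFP-TTP-AA minus GFP and GFP-TTP-AA minus GFP-TTP. None passed 2-fold. The most abundant, Actb (mean scaled value 297192), differed by -0.02, 0.24 and 0.25, and Rplp0 (101146), Ppia (26098) and Pgk1 (19281) stayed within 0.24 of 0. The difference of Lyz2 between GFP-TTP-AA and GFP, 0.18, was thus smaller than that of Actb. The paper lists Actb among its top 3′UTR targets by crosslinks, but regards it as a negative control because it lacks an AU-rich element.

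Genes with the most similar pattern were looked for among 11120 genes with a mean of at least 50, by the Euclidean distance of the 3 centred group means (log2). This distance also reflects the size of the differences, so a gene with large differences tends to have few near neighbours. No gene lay nearer to Lyz1 than 0.44. The 5 nearest were Mylk (distance 0.44), a myosin light chain kinase, Sema5a (0.46), a semaphorin, Napsa (0.50), an aspartic protease, Cped1 (0.66) and Rell1 (0.67). Of these, Mylk had a mean scaled value of 302 and differences of -0.81, -1.35 and -0.54, so it stepped down in the same order as Lyz1 but less. Lyz2, whose differences were small, had 5 genes within a distance of 0.02: 9530053A07Rik, Ms4a6c, H1f0, Dnhd1 and Snord35a. Ms4a6c, a tetraspan-like membrane protein, had a mean of 277 and differences of -0.31, 0.17 and 0.48. With 3 group means per gene, such likeness describes the pattern and size of the differences alone.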

How the data were processed

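Per the labels and methods, the authors sequenced rRNA-depleted total RNA (ARTseq kit, 50-base single-end reads), aligned it to GRCm38 with TopHat keeping up to 2 placements per read, counted reads per gene with HTSeq and fitted DESeq2 (1.6.3 in the submitters' processing notes) with library date and condition. The methods and these notes differ on the TopHat release (TopHat2 2.0.12 in the notes). Whether counting used strand is not given in the sources used here.

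The deposited table named as normalized counts holds 25504 rows (25494 genes, repeated identifiers counted once) of fitted signal, that is, the authors' model means including the library factor. They are not counts, and low genes are drawn towards no difference: below a mean of 1 the largest difference was 0.17 (log2). The authors' 3 comparison tables also hold fold changes, standard errors and p-values, which were not used; only their mean signal per gene was.

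Libraries were grouped by their labels. Values were scaled by median ratios over genes whose mean reached 10, and group means of log2(value + 0.5) were subtracted. Fitted values have no residual scatter, so no test was run, and 2-fold serves as a threshold of size. The steps were tested on simulated data. Same-numbered libraries differed by 1 constant per gene and pair of groups (largest deviation 2.1e-14), so the values are additive in group and replicate number. The authors' model holds library date, but the sample labels used here give no dates. The genes and lists were chosen with earlier results of these data known. Named were Lyz1, Lyz2 and Zfp36, the 4 highest members of each list and those past 2-fold, 5 measured neighbours on each side and the 5 genes nearest in pattern; others are said to be chosen later. Positions, lengths and sequences came from GENCODE mouse release 21 (GRCm38), in which 99.5% of the genes compared had a position, and upstream sequences from RefSeq (GRCm38.p6), where both genes matched. Levels between genes are per kilobase of exon. Python 3.11.15, numpy 2.4.6, pandas 2.3.3, Biopython and matplotlib were used. Alternatives were 3 other scalings, other filters and pseudocounts, the replicate block and leaving out each library.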

Additional observations from a re-analysis of the deposited data

How the results depend on the processing

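The direction of all 9 differences of Lyz1, Lyz2 and their ratio was the same under scaling by the library total, the upper quartile or the reference genes, without a filter or with a mean of at least 50, with a pseudocount of 0 or 10, and without any one library, and none moved by more than 1 SD of the fitted replicate term, which is no measure of scatter. Leaving out 1 library at a time gave -1.39 to -1.10 (GFP-TTP minus GFP), -2.10 to -1.81 (GFP-TTP-AA minus GFP) and -0.86 to -0.57 (GFP-TTP-AA minus GFP-TTP) for Lyz1, and -0.43 to -0.16, 0.04 to 0.31 and 0.33 to 0.60 for Lyz2. The Lyz2 difference of GFP-TTP-AA minus GFP was lowest, 0.04, without GFP-TTP-AA replicate 2 and highest, 0.31, without GFP replicate 2. These ranges follow from the fitted replicate term, since a library left out unbalances it. With the replicate block the values were identical to those reported, for example -1.24 and -1.96 for Lyz1, because fitted values are additive in group and replicate number. Numbers of genes past 2-fold were 171, 184 and 413 in the 3 comparisons and stayed within 1.5 times under these alternatives. Taking 0.5% of Lyz2 off Lyz1 moved the Lyz1 differences to -3.03 (GFP-TTP-AA minus GFP) and -1.57 (GFP-TTP-AA minus GFP-TTP). Scatter between cultures, and with it any test, is not contained in fitted values, and the level of Lyz1 also depends on how reads with 2 placements were counted.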
